A study of Homo sapiens with 4 samples.

Results

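The zinc finger genes at the end of the long arm of chromosome 8, in band 8q24.3, were described here through the chromatin accessibility of their promoters. The cluster was taken by symbol as ZNF251, ZNF34, ZNF517, ZNF7, ZNF250, ZNF16 and ZNF252P, the last being a transcribed pseudogene. All 7 were among the 28775 promoters of the count table, and all 7 were among the 27647 that passed the filter on low counts. ATAC-seq, which maps open chromatin through the sites where Tn5 transposase can insert sequencing adapters, was performed on HEK293T cells, an established human embryonic kidney line that carries the SV40 large T antigen. The WT group held 2 libraries of unedited cells. The MORC2 KO group also held 2 libraries, each from an uncloned pool of cells electroporated with Cas9 and a MORC2 guide RNA, with a different guide in each pool. The guides overlap at the same target site, and guide and KO replicate cannot be told apart. No other treatment or time point was part of the comparison, which asks whether accessibility changes when MORC2 is lost.

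C2H2 zinc finger genes of the KRAB class lie in clusters that grew by tandem duplication. Their proteins bind DNA through arrays of zinc fingers, often within retrotransposons, and their KRAB domain recruits TRIM28, which brings the histone methyltransferase SETDB1 and histone H3 lysine 9 trimethylation. The HUSH complex, built from TASOR, MPHOSPH8 and PPHLN1, binds that mark and works with the ATPase MORC2 to silence retrotransposons and some genes, zinc finger genes among them.

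The libraries held from 9435801 to 15152636 promoter counts, with mitochondrial rows taking between 20.57% and 35.14% of a library. KO replicate 2 was the deepest library and had the lowest mitochondrial share. The 7 zinc finger promoters together held 3387 and 3227 counts in the WT libraries against 4342 and 6606 counts in the KO libraries. The promoter of the embryonic kidney gene LHX1 was open in all 4 libraries, at 17.9 to 20.4 CPM (counts per library, scaled to a common total), whereas those of EYA1 and PAX2 lay at 5.40 to 6.09 and 5.86 to 7.89 CPM. The blood and liver genes PTPRC, CD3E and ALB lay lower, at 1.11 to 2.87 CPM. The pancreas gene INS lay at 4.32 to 5.82 CPM, so that EYA1 overlapped INS and PAX2 lay just above it. INS exceeded EYA1 only in WT replicate 1, at 5.82 against 5.40 CPM.

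In MORC2 KO, 2 of the 7 zinc finger promoters, ZNF251 and ZNF34, rose by about 20% each, and none fell. ZNF16 and ZNF252P had differences of similar size that did not pass the test, while ZNF517, ZNF7 and ZNF250 had differences near 0 with overlapping libraries. Calls rest on edgeR and its quasi-likelihood F-test at a Benjamini-Hochberg adjusted p under 0.05 over all tested promoters. By that rule 4.45% of all tested promoters were called, 3.45% higher in KO and 0.995% lower. The study's own analysis tested windows along the genome, summarised them per promoter and reported far fewer differentially accessible genes in these cells.

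ZNF34 had the most accessible promoter of the cluster and was called. Its levels were 106.5 and 101.5 CPM in the WT libraries and 125.6 and 124.2 CPM in the KO libraries, given here and throughout in the order of replicate number and scaled by the TMM method as are all CPM given here. The KO values exceeded both WT values, and the KO pair differed from each other by less than the WT pair. The mean was 104.0 ± 3.60 CPM (SD, n = 2) in WT and 124.9 ± 1.03 CPM (SD, n = 2) in KO, a log2 fold change of 0.26 (SE 0.062, 95% interval 0.14 to 0.38) with an edgeR adjusted p of 0.00318. The increase was 20.0%, and each KO pool showed it, with log2 differences from the WT mean of 0.27 for KO replicate 1 and 0.26 for KO replicate 2.

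ZNF251, which lies next to ZNF34, started from a lower level and changed by a similar amount. Its promoter measured 40.9 and 40.5 CPM in the WT libraries and 48.5 and 49.3 CPM in the KO libraries. The groups did not overlap, and the replicates of each group were close together, at 40.7 ± 0.269 CPM (SD, n = 2) in WT and 48.9 ± 0.522 CPM (SD, n = 2) in KO. The log2 fold change was 0.26 (SE 0.075, 95% interval 0.12 to 0.41), an increase of 20.2% with an edgeR adjusted p of 0.0189. The log2 differences of the first and second KO pool from the WT mean were 0.25 and 0.27.

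**Figure D1:**
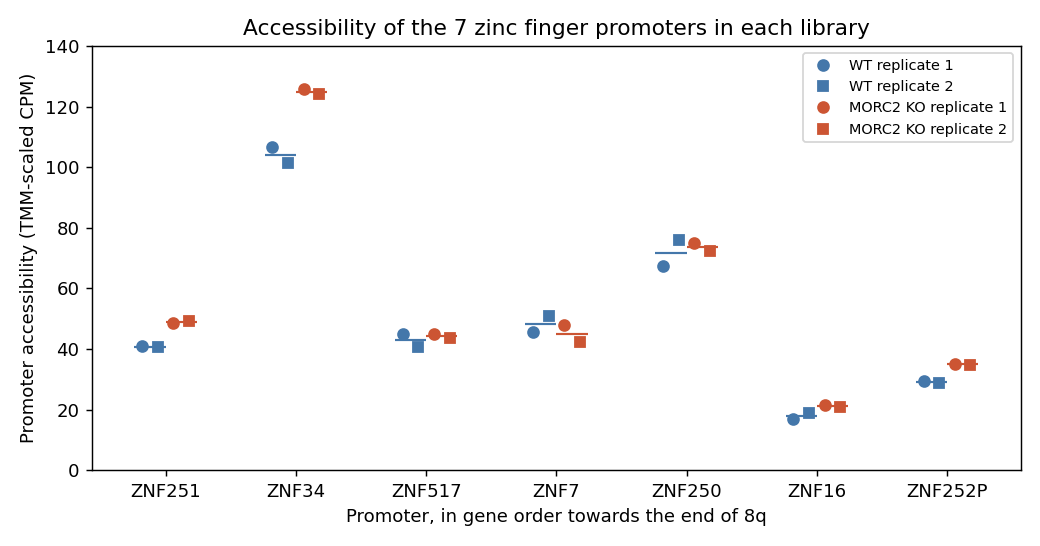
TMM-scaled CPM (vertical axis) of each zinc finger promoter, in gene order along the horizontal axis, for each WT (blue) and MORC2 KO (orange) library, with horizontal lines at the means of 2 libraries. ZNF251, ZNF34, ZNF16 and ZNF252P show both KO libraries above both WT libraries, as for ZNF34 at 125.6 and 124.2 CPM against 106.5 and 101.5 CPM, while the groups overlap for ZNF517, ZNF7 and ZNF250.

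At the other end of the cluster, ZNF252P, the pseudogene, measured 29.4 and 28.8 CPM in WT and 35.03 and 34.77 CPM in KO. Its groups did not overlap either, and its means were 29.1 ± 0.419 CPM (SD, n = 2) in WT and 34.9 ± 0.186 CPM (SD, n = 2) in KO. The log2 fold change of 0.26 (SE 0.087, 95% interval 0.091 to 0.43) had an unadjusted p of 0.00267 and an edgeR adjusted p of 0.0545, just above the threshold. ZNF16, also known as HZF1, had the least accessible promoter of the cluster, at 17.03 and 18.83 CPM in WT and 21.5 and 21.0 CPM in KO. Each KO value exceeded both WT values, with means of 17.9 ± 1.27 CPM (SD, n = 2) in WT and 21.2 ± 0.332 CPM (SD, n = 2) in KO. Its log2 fold change was 0.24 (SE 0.11, 95% interval 0.030 to 0.46), with an edgeR adjusted p of 0.178. With 164 to 358 fragments per library ZNF16 had the widest interval of the cluster, and a difference of 18.3% was not separable from the spread at this depth once all promoters were corrected for.

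The remaining members are neighbours in the middle of the cluster. ZNF517 measured 45.0 and 40.8 CPM in WT and 44.8 and 43.6 CPM in KO, with both KO values inside the WT range. Its log2 fold change was 0.039 (SE 0.075, 95% interval -0.11 to 0.19), with an edgeR adjusted p of 0.804. ZNF250 measured 67.4 and 76.1 CPM in WT and 74.8 and 72.2 CPM in KO, again within the WT range, with a log2 fold change of 0.034 (SE 0.066, 95% interval -0.095 to 0.16) and an edgeR adjusted p of 0.805. ZNF7 was the single member below 0: it measured 45.5 and 50.9 CPM in WT and 47.9 and 42.3 CPM in KO, so that only KO replicate 2 lay below both WT libraries. Its log2 fold change was -0.11 (SE 0.074, 95% interval -0.25 to 0.036), with an edgeR adjusted p of 0.405. The intervals of these 3 promoters leave room for an increase of up to 0.19 at ZNF517 or a decrease reaching -0.25 at ZNF7 on the log2 scale, and those of ZNF517 and ZNF250 overlap the intervals of ZNF251 and ZNF34. The interval of ZNF7 lies below those of ZNF251 and ZNF34. Whether members differed from each other in their change was not tested.

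The calls at ZNF251 and ZNF34 depended on the scaling, the tool and 2 of the libraries. Neither was called with total count scaling, with loess offsets that follow the level of a promoter, by DESeq2 without its independent filter, without KO replicate 2 (edgeR adjusted p of 0.272 for ZNF251 and 0.0907 for ZNF34) or without WT replicate 2 (0.127 and 0.0819), and ZNF251 alone was not called with thinned counts (0.131) or nuclear total scaling (0.0796), although their log2 fold changes stayed at 0.20 and 0.17 with loess offsets, 0.40 and 0.40 with total count scaling (median of all tested promoters 0.12), 0.27 and 0.27 by DESeq2, 0.26 and 0.28 without KO replicate 2, and 0.26 and 0.23 without WT replicate 2.

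**Figure D2:**
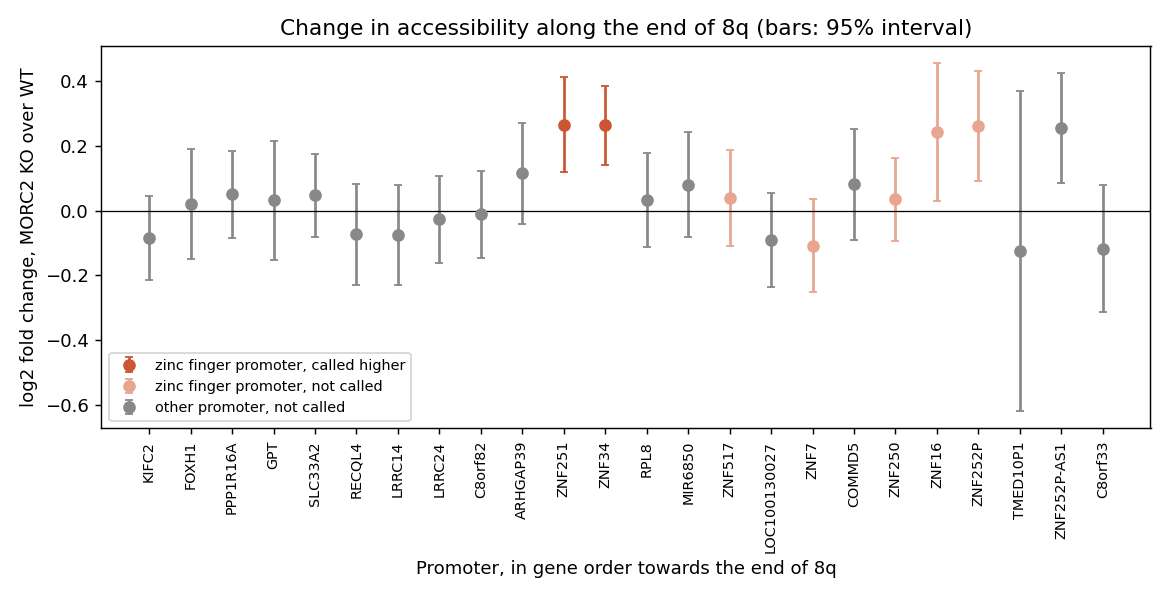
Log2 fold change of MORC2 KO over WT (vertical axis; bars are 95% intervals from the edgeR fit) for the zinc finger promoters and 17 other promoters in gene order towards the end of 8q (horizontal axis). The called promoters ZNF251 and ZNF34 lie at 0.26, ZNF16 and ZNF252P at 0.24 and 0.26 without a call, and ZNF517, ZNF7 and ZNF250 between them at 0.039, -0.11 and 0.034.

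In gene order the 4 members with differences near 20% were the outer ones, ZNF251 and ZNF34 on the side towards the centromere and ZNF16 and ZNF252P on the side towards the telomere. The genes between them include RPL8, which encodes a protein of the large ribosomal subunit, and COMMD5, which encodes a COMM domain protein. Against 4.45% of all tested promoters called in either direction, none of the 17 non-zinc-finger promoters around the cluster was called by edgeR. Of the 17, 1 had an unadjusted p under 0.05, higher in KO. That promoter was ZNF252P-AS1, the antisense transcript of ZNF252P, with a log2 fold change of 0.25 and an edgeR adjusted p of 0.063. Its counts differed from those of ZNF252P by at most 1.14% in any library, so the pair are in effect 1 measurement. The shared fragments cannot be assigned to either gene alone. The 4 non-member promoters between the first and last member had a median log2 fold change of 0.056, with 0 called. Lists of 17 and 4 promoters are too short to set 0 calls apart from the share of all tested promoters.

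RPL8 measured 41.0 and 50.8 CPM in WT and 49.8 and 44.7 CPM in KO, a log2 fold change of 0.033 with an edgeR adjusted p of 0.834. COMMD5 differed by 0.081 on the log2 scale (edgeR adjusted p of 0.629), and C8orf33, the last gene before the telomere in the table, by -0.12 (edgeR adjusted p of 0.522). None of these 3 was called. LOC100130027 had counts within 1.83% of those of ZNF7 in every library, so their windows cover nearly the same fragments, and its log2 fold change was -0.091 (edgeR adjusted p of 0.503). Other pairs within 3 rows of each other stayed within 25% in every library, a limit that promoters of similar level can meet without shared fragments: ARHGAP39 and RPL8 with ZNF251, RPL8 and LOC100130027 with ZNF517, and COMMD5 with ZNF252P. ARHGAP39, which adjoins ZNF251, differed by 0.12 on the log2 scale (edgeR adjusted p of 0.412).

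RPL8, COMMD5 and C8orf33, at the same end of 8q, provide a reference that needs no scaling of whole libraries. Against their summed count in the same library, ZNF251 stood at 0.421 and 0.388 in WT and 0.454 and 0.502 in KO, and ZNF34 at 1.10 and 0.970 in WT and 1.18 and 1.27 in KO. The groups did not overlap for either gene, and the KO mean was 1.18 times the WT mean for both. ZNF252P stood at 0.302 and 0.275 in WT and 0.328 and 0.355 in KO, also a ratio of means of 1.18. ZNF16, at 0.175 and 0.180 in WT and 0.201 and 0.214 in KO, had a ratio of means of 1.17. The KO ratios of ZNF252P and ZNF16 lay above both WT ratios. ZNF517 and ZNF250 each gave 1.01 with overlapping libraries, and ZNF7 gave 0.921, with both KO ratios, 0.448 and 0.432, below both WT ratios, 0.468 and 0.487. On the CPM scale the groups overlapped for ZNF7. These ratios are given as values without a test. They carry the spread of the reference, in which RPL8 measured 41.0 and 50.8 CPM in the WT libraries. With 2 libraries a group the smallest two-sided p of an exact permutation test is 0.333.

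Summed over the cluster, the 7 promoters reached 351.7 and 357.4 CPM in WT and 398.2 and 387.3 CPM in KO. The groups did not overlap, and the means were 354.6 ± 4.01 CPM (SD, n = 2) in WT and 392.8 ± 7.69 CPM (SD, n = 2) in KO. ZNF34 carried the greatest part of that sum in every library. As a share of all nuclear promoter counts, without TMM, the cluster held 0.0513% and 0.0527% in WT and 0.0567% and 0.0549% in KO, again with no overlap. Relative to the 3 neighbours, the cluster stood at 3.62 and 3.42 in WT and 3.73 and 3.95 in KO, a ratio of means of 1.09.

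Levels of different promoters are compared on the CPM scale under the assumption that every window has the same length, which is the study's definition of a promoter but is not stated for this table. In WT the order of mean level was ZNF34, ZNF250, ZNF7, ZNF517, ZNF251, ZNF252P and ZNF16. All neighbours in that order were separated in both WT libraries except ZNF517 and ZNF251. Among all tested promoters, ZNF34 lay at percentile 98.9 of WT level, ZNF250 at 94.7, ZNF252P at 63.9 and ZNF16 at 51.4, so the cluster ran from the middle of the table to its most open promoters. In KO the order was ZNF34, ZNF250, ZNF251, ZNF7, ZNF517, ZNF252P and ZNF16. ZNF251 moved up by 2 places, above ZNF7 and ZNF517 in both KO libraries, and ZNF7 and ZNF517 overlapped. The called members were the first and the fifth by WT level and those near 0 were the second to the fourth, so the differences did not follow the order of level.

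**Figure D3:**
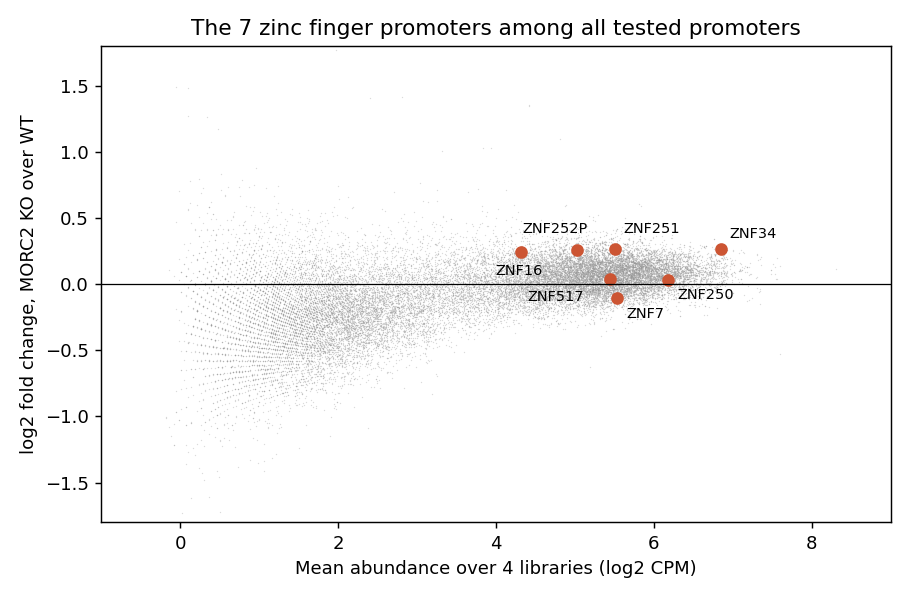
Log2 fold change of MORC2 KO over WT (vertical axis) against mean abundance over 4 libraries in log2 CPM (horizontal axis) for tested promoters (grey), with the zinc finger promoters in orange; 36 rows above 9 log2 CPM lie beyond the right edge. ZNF251, ZNF34, ZNF16 and ZNF252P lie along the upper part of the cloud at their level, between 0.24 and 0.26, and ZNF7 lies at -0.11.

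The log2 fold changes of ZNF251, ZNF34, ZNF252P and ZNF16 lay at percentiles 96.0, 95.9, 95.8 and 94.6 of all tested promoters. Those of ZNF517, ZNF250 and ZNF7 lay at percentiles 61.4, 60.2 and 34.9. The median over the 7 members was 0.24, against -0.017 over all tested promoters. At 4 of the 7 members the lower KO library exceeded the higher WT library, against the same separation at 25.2% of all tested promoters, and the same 4 had an unadjusted p under 0.05 with a higher KO level, against 11.5%.

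Log2 fold changes in this table were higher among more open promoters, as the plot of change against abundance shows. Among the 12761 promoters whose mean level lay in the range of the members, from 4.318 to 6.848 log2 CPM, the median log2 fold change was 0.065. In that range 6.79% were called higher in KO and 43.6% had both KO libraries above both WT libraries. An unadjusted p under 0.05 in edgeR with a higher KO level was found at 2825 of the 12761. The members' 2 of 7 and 4 of 7 are to be read against these shares, and no test was made of the cluster against them.

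Other promoters whose symbol starts with ZNF gave a nearer comparison. They were taken by symbol alone, so antisense rows such as ZNF436-AS1 are among them. ZNF252P-AS1, which shares the fragments of ZNF252P, and the 12q24.33 promoters described below are also included. Rows that share fragments were counted separately. Of 593 other promoters with a ZNF symbol that were tested, 49 were called higher (8.26%) and 7 lower, with a median log2 fold change of 0.058. Restricted to the members' range of level there were 313, of which 36 were called higher (11.5%) and 5 lower, with a median of 0.084. The 49 and 7 calls became 6 and 0 without KO replicate 2, 20 and 1 without WT replicate 2, 17 and 8 with loess offsets, 20 and 10 with nuclear total scaling and 5 and 0 with total count scaling. DESeq2 without its independent filter called 2 of them higher and 0 lower, with 52 higher at an unadjusted p under 0.05. The 992 tested promoters of chromosome 8 outside the cluster had 19 called higher (1.92%), 2 called lower and a median of 0.0099. In the members' range of level there were 444 of them, with 18 called higher (4.05%), 0 called lower (4 lower at an unadjusted p under 0.05 in edgeR) and a median of 0.089. The lower KO library exceeded the higher WT library at 228 of these 444 promoters (51.4%) and at 152 of the 313 promoters with a ZNF symbol (48.6%). The reverse separation, with KO lower, was found at 27 and 26. Among the members the upward separation was found at 4 of 7 (57.1%) and the reverse at 0, so the members' share lay near those of both lists. No difference between these lists was tested. None of the 50 nearest promoters to the cluster was called by edgeR, although 3 had an unadjusted p under 0.05 (2 higher, 1 lower), and their median was 0.013. Subtracting that local median from the members left their own median at 0.23.

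A cluster of 7 zinc finger promoters at the end of chromosome 12q, in band 12q24.33, is of the same size and also lies near a telomere. Of its promoters, 3 were called higher and none lower, with log2 fold changes from 0.031 to 0.30 and a median of 0.20. The called promoters were ZNF140 at 0.29 (edgeR adjusted p of 0.00159), ZNF10 at 0.30 (0.00914) and ZNF891 at 0.30 (0.00956), where ZNF10 and ZNF891 held nearly the same counts and are in effect 1 measurement. ZNF10 encodes a protein whose KRAB domain is the one widely used in engineered repressors. The 8q24.3 cluster thus had 2 called promoters, and 4 of its 7 had separated libraries. The 12q24.33 cluster had 3 called promoters, and 4 of its 7 had separated libraries. ZNF10 and ZNF891 are among both the 3 and the 4, so counting them once lowers each count by 1, the calls to 2. The difference between the clusters was not tested. As background for the alternatives below, all tested promoters had 2442 higher at an unadjusted p under 0.05 in edgeR with total count scaling. DESeq2 without its independent filter had 1170 higher at that cut-off. The numbers lower were 507 and 256. All calls in the 12q24.33 cluster were lost without KO replicate 2 and without WT replicate 2, where 2 and 4 promoters were higher at an unadjusted p under 0.05 in edgeR, as well as with total count scaling (4) and by DESeq2 without its independent filter (3).

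Promoters of the machinery through which KRAB proteins and HUSH silence chromatin were counted in the same fit, over a list of 16 textbook partners. Which of the 7 zinc finger genes encode a KRAB domain was not examined here. Of these, 3 were called higher (18.8%) and none lower, with a median log2 fold change of 0.13. Over all tested promoters 3.45% were called higher, with a median of -0.017. In the range of level of the 7 zinc finger promoters 6.79% were called higher, with a median of 0.065. The difference between the partner list and these shares was not tested. TASOR, a core subunit of HUSH, measured 29.6 and 29.6 CPM in WT and 40.4 and 39.8 CPM in KO, which is a log2 fold change of 0.44, with an edgeR adjusted p of 0.000124. MORC2 itself measured 25.7 and 29.6 CPM in WT and 37.0 and 37.5 CPM in KO, or 0.43 higher on the log2 scale, with an edgeR adjusted p of 0.000279. Both KO libraries were above both WT libraries for TASOR and MORC2. Accessibility of the MORC2 promoter does not measure the edit, so it is no check of the knockout. PPHLN1, another HUSH subunit, was higher by 0.26 on the log2 scale (edgeR adjusted p of 0.0394). TRIM28 and SETDB1, the partners nearest to the KRAB domain, had log2 fold changes of -0.026 (edgeR adjusted p of 0.872) and -0.0063 (0.972). No partner was called with total count scaling or by DESeq2 without its independent filter, where 6 and 3 of the 16 were higher at an unadjusted p under 0.05. Over all 27647 tested promoters these fits had 2442 and 1170 higher, and 507 and 256 lower, at the same cut-off. Without KO replicate 2 the calls at MORC2 (edgeR adjusted p of 0.0837) and PPHLN1 (0.542) were lost, and that at PPHLN1 also without WT replicate 2 (0.421), with loess offsets (0.234) and in 5 other alternatives.

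**Figure D4:**
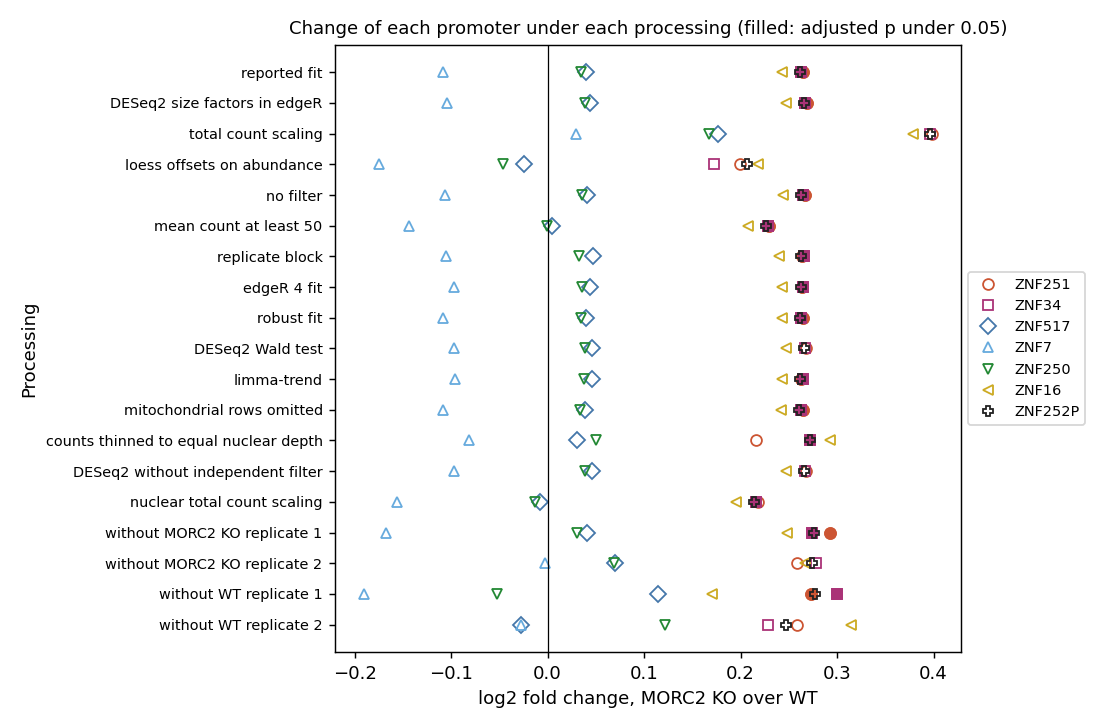
Log2 fold change of MORC2 KO over WT (horizontal axis) for each zinc finger promoter under the reported fit and each alternative (vertical axis), with filled symbols at an adjusted p under 0.05. ZNF251, ZNF34, ZNF16 and ZNF252P lie to the right of 0 in every alternative drawn, whereas ZNF517, ZNF7 and ZNF250 each cross 0 in some of them.

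The mean profile of the 7 members over the 4 libraries, centred on the log2 CPM scale, stood at 0.095 and 0.051 in the KO libraries against -0.089 and -0.057 in the WT libraries. The promoters closest to it were POLR2J2, at a root-mean-square difference of 0.0019, ASAH1-AS1 at 0.0057 and SMPD2 at 0.0057. These values come from 4 libraries, and 2361 promoters lay within 0.05 of the profile, so likeness at this number of libraries singles out no promoter.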

How the data were processed

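Promoter accessibility from ATAC-seq of HEK293T cells was analysed in 4 libraries, grouped by the genotype in the labels (MORC2 KO or WT). The authors trimmed read pairs with Trim Galore, aligned them to the telomere-to-telomere assembly CHM13 with bowtie2, discarded pairs of low mapping quality, and used Picard to drop duplicates. They deposited raw counts per promoter, one row per NCBI Gene ID. The counter used for this table is not given in the sources used here. Overlapping windows can count 1 fragment more than once. The WT peak list is on CHM13 and was not used here. Sequence and protein features of the members were not analysed here.

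A RefSeq table on GRCh38.p14 gave symbols for 28763 of 28775 IDs, with chromosomes and start positions. The start positions served to put the genes of chromosome 8 in order. The flanking list and the nearest promoters rest on that order, whereas the reads were aligned to CHM13. filterByExpr removed 1128 rows, which left 27647. KO and WT were compared with the quasi-likelihood F-test (legacy fit, TMM, no covariates, two-sided) of edgeR 4.0.16 in R 4.3.3, with Benjamini-Hochberg adjustment over all tested rows at 0.05. The methods call the WT libraries independent replicates and do not name separate cultures, so p-values may measure only the spread between these libraries. The common biological coefficient of variation was 4.24%, and the median tested count was 149 to 288 per library. Intervals are 95% and derive from the F statistics. The scripts were tested on simulated data.

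Alternatives covered scaling, the filter, a replicate block, other edgeR fits, DESeq2 1.42.0, limma-trend (limma 3.58.1, prior count 2), omission of 37 mitochondrial rows, thinning to 6119609 nuclear counts, the threshold, the local reference, the length of the flanking list, and leaving out each library. Members and lists were chosen with earlier results of these data known, so no test was made over any list. Named were all members; flanking promoters called or sharing a member's fragments, RPL8, COMMD5 and C8orf33; partners and 12q24.33 promoters called, TRIM28, SETDB1 and MORC2; and the 3 promoters of closest profile. PAX2, EYA1, LHX1, PTPRC, CD3E, ALB and INS served as markers; 1 further marker is not reported here. Flanking promoters were those between the members, all rows to the end of the chromosome and 10 rows on the other side.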

Additional observations from a re-analysis of the deposited data

How the results depend on the processing

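Calls at the 7 zinc finger promoters (2 in the reported fit) fell to 0 with total count scaling (4 higher at an unadjusted p under 0.05), with loess offsets (4 higher, 1 lower), and by DESeq2 with or without its independent filter (3 higher in each; the filter left 3 of the 7 with an adjusted p). The count was 1 with thinned counts, with nuclear total count scaling and at an adjusted p under 0.01, and it ran from 0 to 2 when 1 library was left out, with 0 without KO replicate 2 or WT replicate 2. DESeq2 without its filter and nuclear total scaling were chosen after seeing the data. The cause of these changes was not tested.

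Over all tested promoters the 1229 calls (954 higher, 275 lower) became 20 with total count scaling, 389 with loess offsets (216 higher, 173 lower), 787 with a mean count of at least 50, 717 by limma-trend, 736 with thinned counts, 728 with nuclear total scaling (342 higher, 386 lower), 6 and 7 by DESeq2 with and without its filter, 2249 and 355 at an adjusted p under 0.1 and 0.01, and 41 to 1637 when 1 library was left out (41 without KO replicate 2, 230 without WT replicate 2). With the replicate block they became 765, with 2 members called. Whether same-numbered libraries were prepared together is not stated in the labels. Deviations of same-numbered libraries had a correlation of -0.000266 across promoters, which with 2 libraries a group cannot settle that question.

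Among the flanking promoters 1 was called at an adjusted p under 0.1 and 0 in every other alternative. The 3 calls among silencing partners became 0 with total count scaling (6 higher at an unadjusted p under 0.05) and by DESeq2 with or without its filter (3 in each), 5 at an adjusted p under 0.1, and 1 to 4 when 1 library was left out. The members' median log2 fold change was 0.38 with total count scaling, where the median of all tested promoters was 0.12, and 0.17 to 0.26 in all other alternatives.

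Differences changed sign only where no call had been made. ZNF517 gave -0.025 with loess offsets, -0.0078 with nuclear total scaling and -0.028 to 0.11 when 1 library was left out. ZNF250 gave -0.046, -0.013 and -0.053 to 0.12 in the same order, and -0.00088 with a mean count of at least 50. RPL8 gave -0.033, -0.014 and -0.12 to 0.19 in that order, and -0.0020 with a mean count of at least 50. Total count scaling gave 0.030 for ZNF7, 0.023 for C8orf33, 0.048 for LOC100130027, 0.11 for TRIM28 and 0.13 for SETDB1. Leaving out 1 library gave -0.18 to 0.021 for LOC100130027, -0.089 to 0.039 for TRIM28 and -0.083 to 0.079 for SETDB1. SETDB1 also gave 0.0037 with the replicate block, 0.00026 with the edgeR 4 fit, 0.0017 by DESeq2 with or without its filter and 0.0026 by limma-trend. Depth and 2 libraries a group limit what single members can show: the intervals of ZNF517 and ZNF250 reached 0.19 and 0.16 on the log2 scale.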
